A study of Mus musculus with 9 samples.

Results

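Cytosolic ribosomal proteins are the proteins of the ribosome that makes cytoplasmic, secreted and membrane proteins. Their genes were taken from the count table by symbol, as all *Rpl* and *Rps* symbols with a number and at most a short suffix, together with *Rplp0*, *Rplp1*, *Rplp2* and *Rpsa*. This gave 83 members among 19329 symbols, 51 of the large and 32 of the small subunit. Liver RNA came from C57BL/6J mice, an inbred strain, with 1 library per animal. Mice were kept on chow (5 livers, chow 1 to 5) or moved at the age of 8 weeks to a high-sucrose diet (HSD; 4 livers, HSD 1 to 4) for 3 weeks, and all livers were taken at 11 weeks. The mice carry no transgene or deletion in the labels, and the sources used here do not state their sex. Estimated counts summed to 12769668 to 25913869 per library, and 12091 genes, 80 of the members among them, passed the filter on low counts. The levels below are CPM (the share of a gene in the counts of its library, scaled by TMM, the trimmed mean of M values) when livers are compared, and TPM (the share of a gene in the transcripts of its library, corrected for length) when genes are compared.

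The large subunit forms the peptide bond and the small subunit reads the mRNA. A ribosome needs 1 copy of nearly every one of these proteins, and their mRNAs are known to be made in step. Most of them begin with a C followed by a run of pyrimidines, the 5′ terminal oligopyrimidine (TOP) start, through which LARP1 and the nutrient-sensing kinase complex mTORC1 control their translation and stability. The liver is rich in ribosomes and is known to change its ribosome content with feeding. Ribosomal protein genes have also left many processed pseudogenes in the mouse genome, which are copies of the spliced mRNA, so that short reads from them can fit several places.

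The starts of a few members show this feature. They are printed from the RefSeq table for GRCm38.p6, on the strand of the gene, with 15 bases on each side of the annotated start. Capitals mark a run of a C followed by at least 6 bases that are all C or T.
Rps6 (chr4:86857353-86857382, minus strand): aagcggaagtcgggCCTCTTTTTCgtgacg
Rplp2 (chr7:141447636-141447665, plus strand): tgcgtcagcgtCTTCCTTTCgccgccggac
Rps27 (chr3:90213634-90213663, minus strand): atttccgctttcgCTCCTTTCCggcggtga
Rpl35 (chr2:39005117-39005146, minus strand): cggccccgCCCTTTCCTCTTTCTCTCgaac
Rpsa (chr9:120127751-120127780, plus strand): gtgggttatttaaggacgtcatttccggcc
*Rps6*, *Rplp2*, *Rps27* and *Rpl35* hold such a run across the annotated start, and *Rpsa* holds none. Of the 83 members, 63 have a start in this table, and in 35 of them (55.6%) a run begins within 20 bases of the start, on the strand of the gene. The same search found a run in 6212 of all 27025 genes (23%). Where transcription began in these livers was not measured.

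The members were among the most abundant transcripts of the liver. The mean level of the 80 members tested ranged from 6.95 to 854 TPM with a median of 349 TPM, against a median of 7.33 TPM over all genes tested. In 73 members it was at least 100 TPM. *Rplp1*, an acidic protein of the stalk that binds translation factors, stood highest at 854 TPM, and *Rps2* at 801 TPM, *Rps27* at 772 TPM and *Rpl26* at 664 TPM were also among the 5 highest. In TPM the diets differed by less than either SD in *Rps2* and *Rps27*. These had 824 ± 67.4 and 761 ± 83.1 TPM on chow and 772 ± 70.4 and 786 ± 30.3 TPM on HSD (SD, n = 5 and 4). In CPM *Rps2* was lower on HSD by more than either SD, at 547 ± 64.7 on chow and 455 ± 50.7 on HSD (adjusted p = 0.189 from edgeR). Together the members took 2.91 ± 0.208% of all TPM on chow and 3.11 ± 0.175% on HSD, and 1.06 ± 0.0754% of all counts on chow and 1.07 ± 0.0681% on HSD. In bulk liver, fewer cells of a type and less RNA per cell cannot be told apart.

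The level of the members differed more between single animals than between the diets. For each liver, the median over the 80 members of log2 CPM minus the mean of the gene over the 9 livers was 0.13 in chow 1, 0.16 in chow 2, 0.01 in chow 3, -0.21 in chow 4 and 0.05 in chow 5. It was -0.15 in HSD 1, 0.10 in HSD 2, -0.01 in HSD 3 and -0.06 in HSD 4. The lowest and the highest liver were thus both on chow, and the diets overlapped. The group means were 0.026 ± 0.148 on chow and -0.030 ± 0.106 on HSD, a difference of -0.056 that is smaller than either SD. In chow 4, 78 of the 80 members were below their own mean, and 48 had their lowest value of all livers there. In HSD 1, 73 members were below their mean and 25 had their lowest value. Chow 1 was highest for 29 members and chow 2 for 34. Both subunits were alike in this, at -0.19 (large) and -0.24 (small) in chow 4 and -0.17 and -0.15 in HSD 1.

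**Figure D1:**
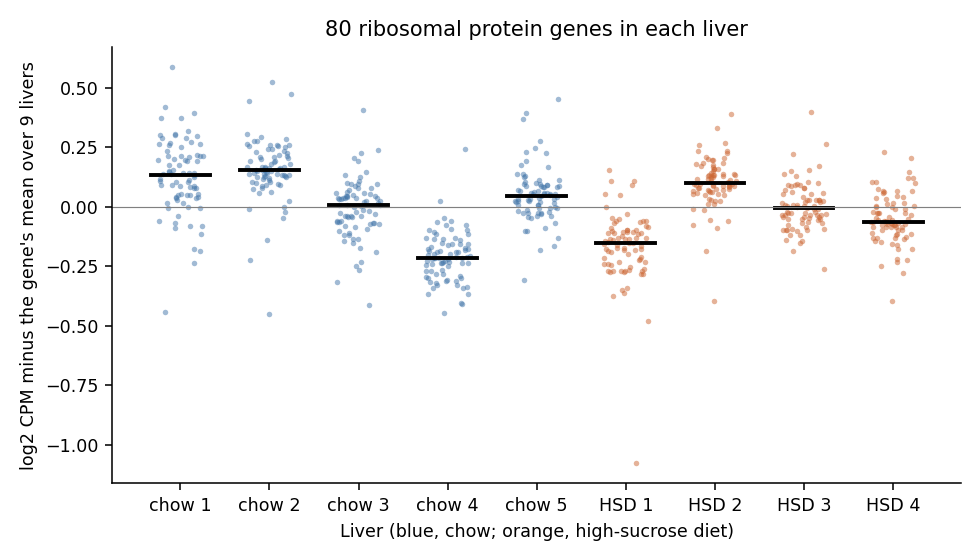
Each point is 1 of the 80 members, drawn as log2 CPM minus its mean over the 9 livers, and the black bar is the median of the members in that liver (blue, chow; orange, HSD). Chow 4 and HSD 1 lie lowest, at -0.21 and -0.15, and chow 2 highest at 0.16; the point far down in HSD 1 is *Rpl22l1*.

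Members varied together from liver to liver, with a median Pearson correlation of 0.64 over all pairs of members across the 9 livers. The median SD of a member across livers was 0.16 on the log2 CPM scale, against 0.25 over all genes tested and 0.18 over the 1591 genes whose average log2 CPM reached 6.22, the lower quartile of the members. The livers share their library, depth and scaling across genes, so these values describe the spread and are no test. In 49 members the correlation with the median level of the members was above 0.8. It was -0.005 for *Rpl10*, -0.003 for *Rpl5*, 0.18 for *Rps6* and 0.20 for *Rpl13*, the 4 lowest, and in each of these the whole coding sequence also occurs in other genes, as it does in 32 of the 80 tested members. The next lowest, *Rps27l* (0.34) and *Rpl7l1* (0.37), share 61.3% and 51.4%. Outside the members, the genes most like their level over the 9 livers were *Naa10*, a subunit of an N-terminal acetyltransferase that works at the ribosome (Pearson r = 0.958), *Rack1*, a scaffold protein of the small subunit (r = 0.958), and *Gas8*, a protein of motile cilia (r = 0.942).

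Libraries differed in other ways beside these levels. Summed acute-phase markers stood at 44080 CPM in chow 1. They reached 2555 to 4739 CPM in chow 2 to 5 and 2199 to 2690 CPM on HSD. All 5 red blood cell markers were detected, at a sum of 182 to 459 CPM on chow and 115 to 157 CPM on HSD, and 1 of them was lower on HSD (edgeR). The 9 Kupffer cell and macrophage markers summed to 218 to 502 CPM on chow and 138 to 278 CPM on HSD, with none called. All 4 hepatocyte markers were present at a sum of 59330 to 122800 CPM over the livers. Markers of T and NK cells, B cells and neutrophils were near 0, at sums of at most 4.20, 3.41 and 3.10 CPM. *Dbp*, a clock gene, stood at 27.4 to 129.5 CPM on chow and 35.1 to 96.15 CPM on HSD. The clock gene *Arntl* stood at 1.35 to 9.24 CPM on chow and 4.20 to 9.15 CPM on HSD. The part of these in the levels of the members was not tested.

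No member differed between the diets at an adjusted p under 0.05. edgeR's quasi-likelihood test, adjusted after Benjamini and Hochberg over all genes tested, called 0 of the 80 members higher on HSD and 0 lower, where it called 3.44% of all genes higher and 3.23% lower (6.67% in either direction). DESeq2 called 2 members lower (2.5%), *Rpsa* and *Rplp1*, where it called 5.25% of the 12635 genes with an adjusted p lower, and limma voom called 0 members. At an unadjusted p under 0.05 edgeR passed 5 members (6.25%), 4 lower and 1 higher, against 23.7% of all genes. In 2 members (2.5%), *Rpsa* and *Rpl22l1*, every HSD liver was below every chow liver in CPM, and 11.3% of all genes had their diets fully apart in one or the other direction. In TPM both overlapped between the diets. On that scale 5 other members, *Rpl22*, *Rpl23a*, *Rps3a1*, *Rps19* and *Rps27l* (named after their values were seen), were higher in every HSD liver than in every chow liver, and 13.3% of the 10542 genes with a mean of at least 1 TPM had their diets apart. The 3 members that did not pass the filter, *Rpl3l*, *Rpl10l* and *Rpl39l*, are paralogs known from muscle and testis, and stood at 0.0889, 0.0309 and 0.0462 TPM.

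The common shift was small. The median log2 fold change (HSD over chow) of the 80 members was -0.06, a ratio of 0.958, with quartiles of -0.12 and 0.01. Over all 12091 genes the median was -0.004 with quartiles of -0.19 and 0.18, and over the 1591 genes about as abundant it was -0.05 with quartiles of -0.22 and 0.11 and 12.7% of them called. There were 55 members below 0 and 25 above it, so 68.8% lay below 0 against 50.4% of all genes. The 48 large subunit members had a median of -0.06 (14 above 0) and the 32 small subunit members one of -0.05 (11 above 0). The 95% interval of the fold change lay within ±0.5 on the log2 scale for 71 members and within ±1 for all 80, but within ±0.25 for only 13. Standard errors were 0.08 to 0.21.

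**Figure D2:**
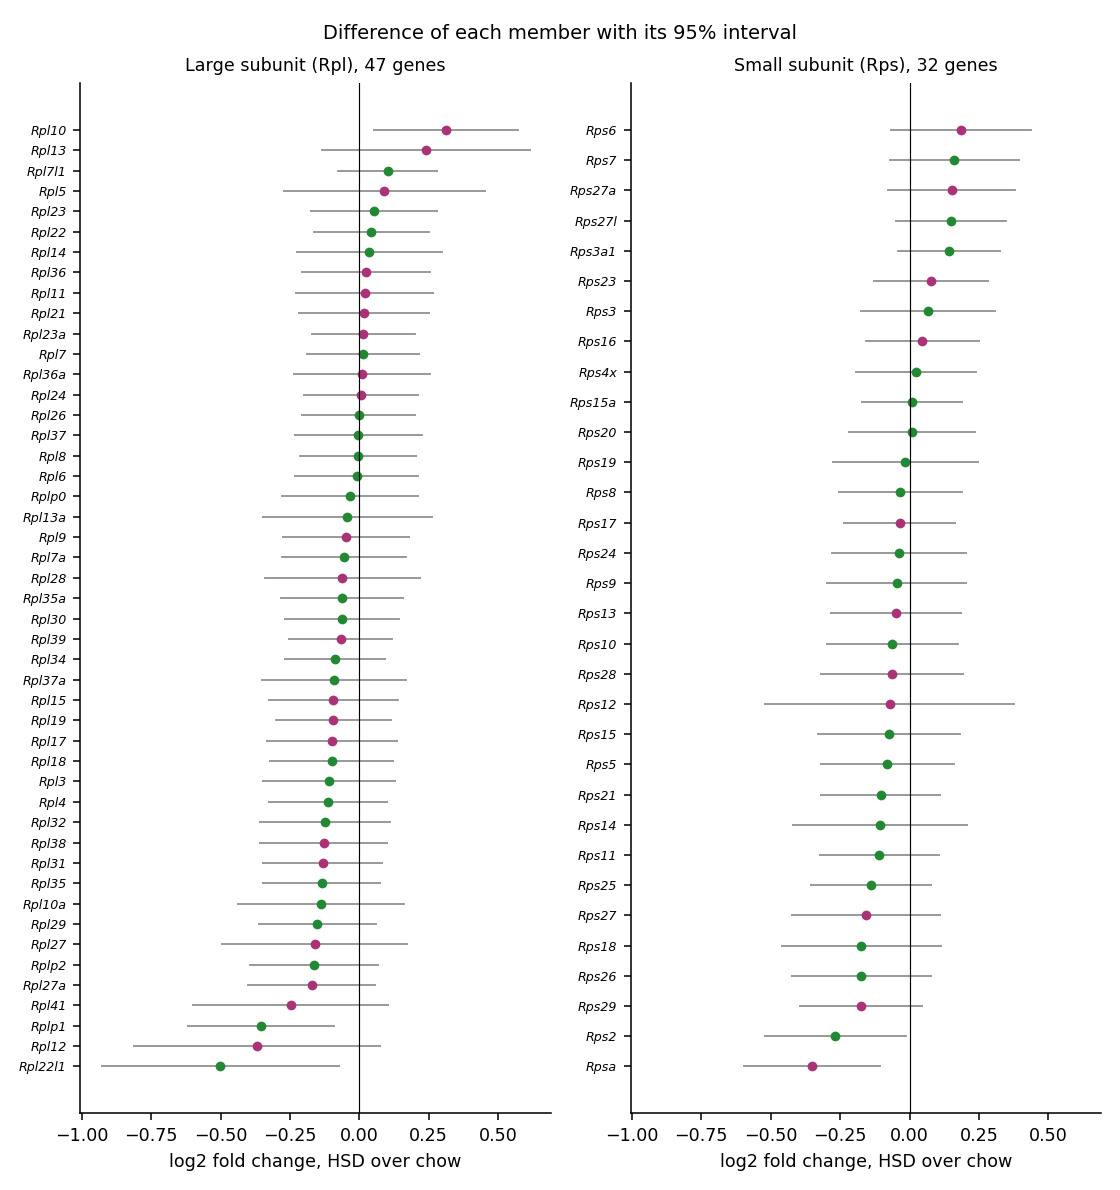
Points are the log2 fold changes (HSD over chow) of 47 large and 32 small subunit members (1 tested large subunit member is not drawn), and lines their 95% intervals from edgeR. Purple points mark members whose coding sequence is found whole, in pieces of 31 bases, in transcripts of other genes. All but 5 of the intervals cross 0, and *Rpl22l1* (-0.50) and *Rpl10* (0.31) lie at the ends.

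The size of this shift depended on single livers, none of which turned its direction when left out, and its direction depended on the scale. Without chow 4 the median was -0.12 and without HSD 2 it was -0.10, while it was -0.04 without chow 1, -0.01 without chow 2 and -0.008 without HSD 1. The numbers of the library labels fall into 2 series, and when the series entered the fit as a covariate the median was -0.05, as in the first series alone (4 chow and 2 HSD livers), with 0 members called in both. On library totals without TMM factors the median of the members was 0.01 and that of all genes 0.07. On log2(TPM + 1) of genes with a mean of at least 1 TPM, tested with limma, 70 of the 80 members were above 0, with a median of 0.12, while the median of all genes was 0.14, and 48 of the 80 members were below that median. Relative to all genes the members stood at -0.06 by TMM, -0.05 by library totals and -0.02 by TPM. With a pseudocount of 0.1 they stood at -0.04, and with no filter on low TPM, where many genes sit near 0, at 0.05. limma called 0 members on each of these TPM scales.

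**Figure D3:**
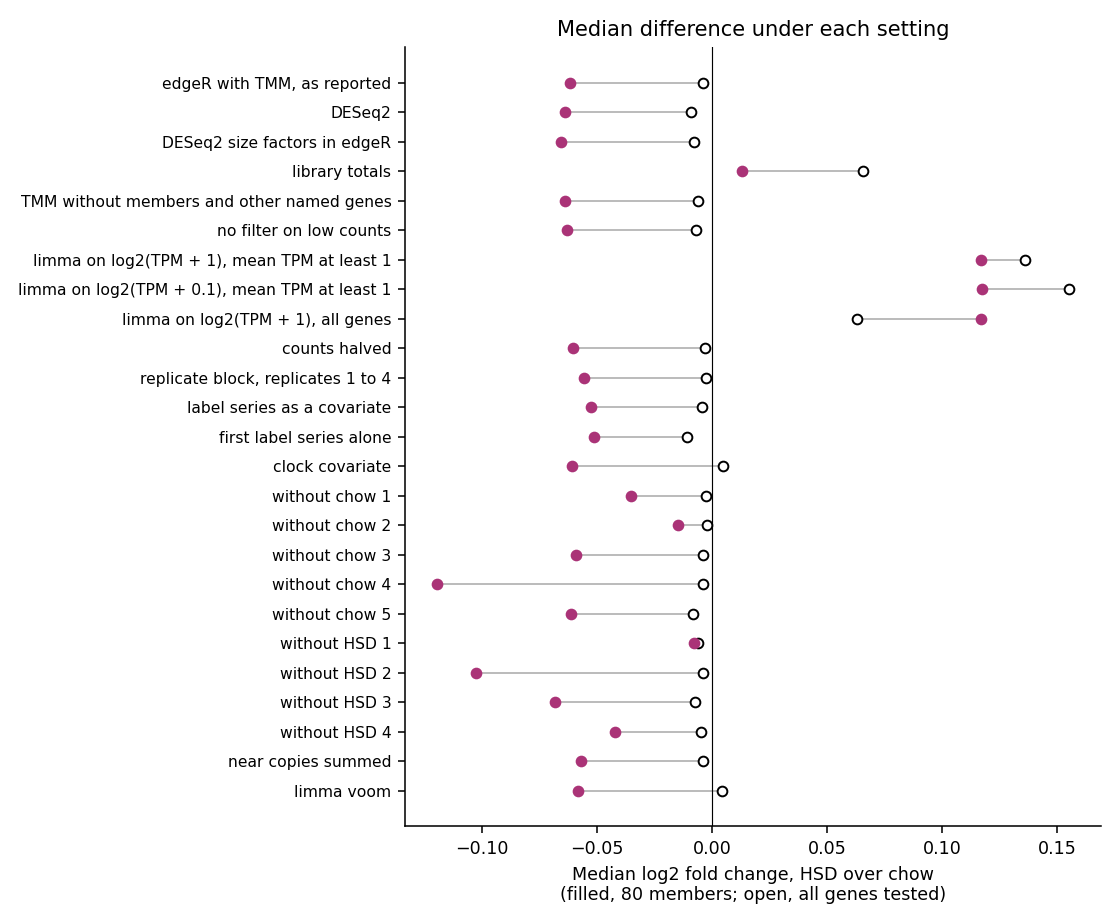
Median log2 fold change (HSD over chow) of the 80 members (filled) and of all genes tested (open) under each setting. The members lie to the left of all genes in every setting but limma on log2(TPM + 1) of all genes, and both lie above 0 on library totals and on TPM.

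Members are short mRNAs, and short mRNAs as a whole sat slightly lower on HSD by TMM. Classes of length were not compared on library totals or on TPM, where the median of all genes was above 0. When the 12082 genes with an annotated length were divided into 4 classes of equal size by transcript length, the shortest class, up to 1414 bases, held 75 of the 80 members. The other genes of this class had a median log2 fold change of -0.06, which is also the median of the members, and those of the next classes had -0.04, 0.02 and 0.09. In chow 4 and HSD 1, where the members were lowest, the other genes of the shortest class were at -0.03 and -0.05. The part of transcript length in the shift of the members was not tested.

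The members with the lowest fold changes were *Rpl22l1*, *Rpl12*, *Rplp1*, *Rpsa* and *Rps2*. *Rpsa*, a protein of the small subunit that was first described as a laminin receptor, had 459, 404, 352, 329.8 and 378 CPM in chow 1 to 5 and 265, 323, 309 and 308 CPM in HSD 1 to 4. All HSD livers were below all chow livers in CPM, the nearest being HSD 2 and chow 4. Its log2 fold change was -0.35 (standard error 0.11, adjusted p = 0.0859 from edgeR and 0.0228 from DESeq2), and its level per length was 477 ± 34.6 TPM on chow and 417.5 ± 32.5 TPM on HSD. In TPM, HSD 2 (442 TPM) and HSD 3 (436 TPM) lay above chow 3 (430.5 TPM). *Rplp1* had 236, 218, 188, 173 and 208.1 CPM on chow and 131, 184, 171 and 156 CPM on HSD, where HSD 2 lay above chow 4. Its log2 fold change was -0.35 (standard error 0.12, adjusted p = 0.103 from edgeR and 0.0495 from DESeq2). The other stalk proteins lay nearer to 0, with -0.16 (standard error 0.11) for *Rplp2* and -0.03 (standard error 0.11) for *Rplp0*, the stalk base that is often used as a reference gene in PCR. *Rps2*, which lies near the entry of the mRNA channel, averaged 547 ± 64.7 CPM in the chow livers and 455 ± 50.7 CPM in the HSD livers, a difference of -0.27 on the log2 scale (standard error 0.12, adjusted p = 0.189 from edgeR).

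*Rpl22l1*, the paralog of *Rpl22*, showed the lowest value and rested in part on 1 liver. It had 15, 20.1, 15.01, 17.1 and 19.0 CPM on chow and 6.79, 14.7, 13.5 and 13.7 CPM on HSD. All HSD livers were below the chow livers in CPM, though not in TPM, and HSD 1 stood far below the others. The log2 fold change was -0.50 (standard error 0.20, adjusted p = 0.145 from edgeR) and -0.30 (standard error 0.13) without HSD 1. *Rpl22* itself averaged 60.8 ± 3.88 on chow and 62.6 ± 7.66 on HSD in CPM, a difference of 0.04 on the log2 scale (standard error 0.09). Among the other paralogs, the log2 fold change was 0.10 for *Rpl7l1* (standard error 0.08) against 0.01 (standard error 0.09) for *Rpl7*, 0.15 (standard error 0.09) for *Rps27l*, which p53 is known to induce, against -0.16 (standard error 0.12) for *Rps27*, and 0.10 (standard error 0.09) for *Rpl36al* against 0.01 (standard error 0.11) for *Rpl36a*. None passed the test, and the differences within pairs were not tested.

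At the other end stood *Rpl10*, *Rpl13*, *Rps6*, *Rps7* and *Rps27a*. *Rpl10*, which joins the large subunit late in its assembly, had 125, 171, 118.1, 139.8 and 119.1 CPM on chow and 164, 185, 150.0 and 169.8 CPM on HSD. Every HSD liver was above chow 1, 3, 4 and 5, while chow 2 lay within the HSD range. Its log2 fold change was 0.31 (standard error 0.12, adjusted p = 0.136 from edgeR). Without chow 2 it was 0.41 and passed the test (adjusted p = 0.0373 from edgeR). *Rpl13* followed with 0.24 (standard error 0.17), having 104 to 175 CPM on chow and 143 to 186 CPM on HSD. *Rps6*, the substrate of the S6 kinases, had 0.18 (standard error 0.12), *Rps7* 0.16 (standard error 0.11) and *Rps27a*, which is made as a fusion with ubiquitin, 0.15 (standard error 0.11), and the diets overlapped in each.

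Most members have near copies elsewhere in the genome. In GENCODE M21, 69 of the 83 members have at least 1 other gene that holds 50% or more of their coding 31-base sequences. There are 306 such copies in all, 283 of them annotated as pseudogenes, with up to 18 pseudogenes for *Rpl21*. In 32 members the whole coding sequence occurs elsewhere in pieces of 31 bases, and the median over members is 96.3%. Only 13 members have such a copy among the symbols of the deposited table. Over 90% of the coding sequence is shared in 57 of all 83 members. Of the 7 tested members under 100 TPM, 6 share that much. These are *Rpl12* (6.95 TPM), *Rpl5* (9.30 TPM), *Rps12* (24.2 TPM), *Rpl27* (37.6 TPM), *Rpl35* (48.2 TPM) and the paralog *Rpl22l1* (60.7 TPM), while *Rpl7l1* (32.9 TPM) shares 51.4%. Of the 32 members that share all of it, 28 stood at 100 TPM or more and 4 below. The part of the copies in these levels was not tested. The median log2 fold change was -0.06 both in the 32 tested members that share all of their coding sequence and in the 25 that share 90% or more but not all, and -0.04 in the 4 that share under 50%. These members and the copies named below were singled out after their values were seen.

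For 3 members a copy in the table held most of the pair, and little or nothing in the coding sequence tells member and copy apart. The coding sequence of *Rpl10* (chrX:74270812-74273135, 642 bases) is identical to that of *Rpl10-ps3* (chr9:50344201-50344968), and that of *Rps12* (chr10:23785183-23787275, 396 bases) to that of *Rps12-ps3* (chr19:59322290-59322783). All 31-base sequences of the *Rps12-ps3* transcript, and 95.8% of those of *Rpl10-ps3*, lie in the main transcript of the member. *Rpl35* (chr2:39001580-39005624) and *Gm2000* (chr1:156366040-156366484) differ in 1 of 369 coding bases, C117T, counted from 1 at the start codon. Of the 31-base sequences of the *Gm2000* transcript, 90.4% lie in the main transcript of *Rpl35*. In the other direction, the copy holds 85.7% of the 31-base sequences of the main transcript of *Rpl10* and 83.8% of those of *Rps12*. It holds only 40.9% of those of *Rpl35*, whose transcript has 946 bases against 445 for *Gm2000*. The first 60 coding bases of *Rpl10*, which are those of *Rpl10-ps3* as well, and coding bases 88 to 146 of *Rpl35* and *Gm2000*, with the differing base in capitals, are as follows.
Rpl10: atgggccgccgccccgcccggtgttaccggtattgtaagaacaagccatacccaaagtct
Rpl35: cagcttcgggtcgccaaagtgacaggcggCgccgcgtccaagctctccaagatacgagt
Gm2000: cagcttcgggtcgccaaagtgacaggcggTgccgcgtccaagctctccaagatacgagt
The genes lie on different chromosomes and all 6 are annotated as protein-coding, the names with ps notwithstanding.

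*Rpl10-ps3* stood at 801 TPM against 395 TPM for *Rpl10*, which is 67.0% of the pair. Its CPM were 376, 384, 339, 304 and 382.5 on chow and 310.3, 346, 354 and 355.5 on HSD. These overlapped between the diets, and the log2 fold change was -0.06 (standard error 0.10) against 0.31 for *Rpl10*. Of the summed counts of the pair, *Rpl10* took 24.95, 30.8, 25.8, 31.5 and 23.7% on chow and 34.6, 34.9, 29.8 and 32.3% on HSD. With the counts of the copy added, a fit chosen after seeing the data, the log2 fold change of *Rpl10* was 0.05 (standard error 0.10, adjusted p = 0.807 from edgeR), and its SD across livers on the log2 scale was 0.10 instead of 0.24. *Rpl10* was thus the highest member alone but not with its copy.

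*Rps12* had 8.21, 9.17, 5.87, 5.36 and 6.39 CPM on chow and 5.61, 7.17, 8.87 and 5.08 CPM on HSD, and *Rps12-ps3* held 96.3% of the TPM of the pair. Summed, the log2 fold change was 0.03 (standard error 0.11) instead of -0.07 (standard error 0.21), and the SD across livers 0.15 instead of 0.32. *Gm2000* held 87.3% of the TPM of its pair with *Rpl35*, and the sum differed by -0.06 on the log2 scale (standard error 0.09) instead of -0.14 (standard error 0.10). With such copies added to their members (10 members, copies named as pseudogenes or retrogenes of the member or by a Gm number, and no other gene), edgeR called 0 members and the median of the members was -0.06.

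**Figure D4:**
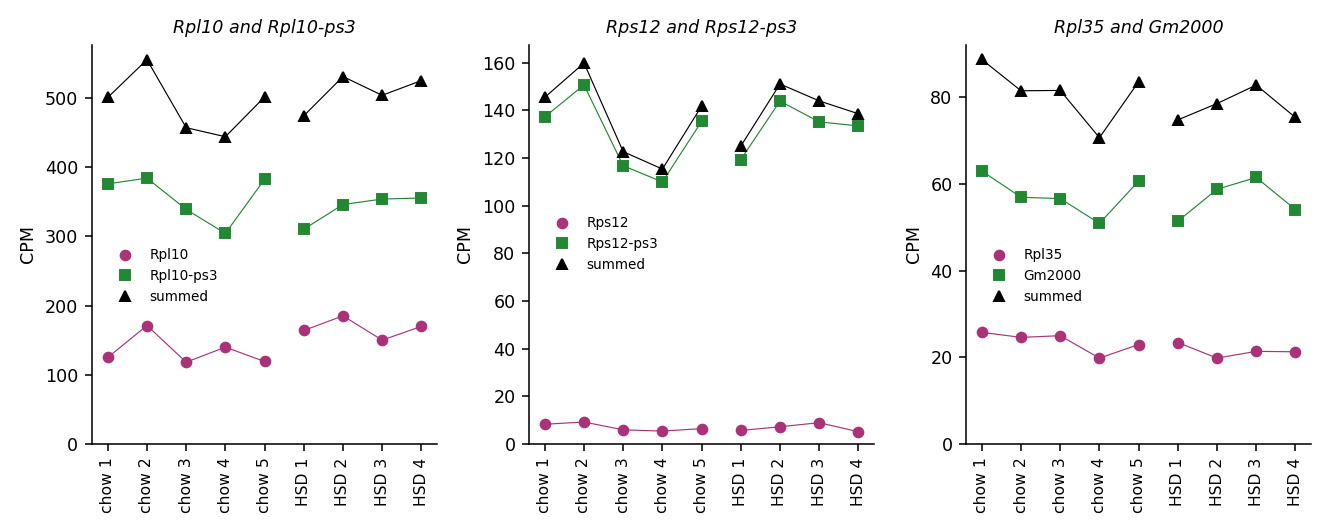
CPM in each liver of *Rpl10*, *Rps12* and *Rpl35* (circles), of their near copies *Rpl10-ps3*, *Rps12-ps3* and *Gm2000* (squares) and of the counts of both summed (triangles). *Rpl10* is higher in the HSD livers than in all chow livers but chow 2, while the sum overlaps between the diets.

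The other parts of the machinery for protein synthesis were compared by lists. Over all genes tested, edgeR called 3.44% higher and 3.23% lower, and 23.7% had an unadjusted p under 0.05. Of all genes, 50.4% lay below 0. The counts of each list are to be read beside these shares. Among 78 mitochondrial ribosomal proteins, 0 were higher and 1 lower by edgeR (12 at an unadjusted p under 0.05), with a median log2 fold change of -0.11 (-0.14 to -0.09 with 1 liver left out, and -0.04 on library totals) and 59 below 0. The one lower was *Mrpl24*, at 52.1, 46.8, 47.4, 43.9 and 47.7 CPM on chow and 32.1, 38.4, 38.4 and 37.0 CPM on HSD, with the diets apart. The difference was -0.38 on the log2 scale (standard error 0.08, adjusted p = 0.01998 from edgeR), and the call was lost without HSD 1 (adjusted p = 0.0716) or HSD 4 (0.0604). The other cytosolic ribosomal proteins outside the symbol rule, among them *Fau* and *Rack1*, had 0 of 5 called by edgeR, DESeq2 and voom (0 at an unadjusted p under 0.05) and a median of -0.06 (-0.12 to -0.004 with 1 liver left out, and 0.02 on library totals). Their level in chow 4 and HSD 1 was -0.23 and -0.20, as low there as that of the members.

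Other mRNAs known for a TOP start had a median above 0 by TMM and on library totals. Of 16, 1 was higher and 0 lower by edgeR (3 at an unadjusted p under 0.05), with a median of 0.09 (0.04 to 0.12 with 1 liver left out, and 0.16 on library totals) and 11 above 0. The one higher was *Nap1l1*, a histone chaperone, which averaged 42.4 ± 2.56 CPM in the chow livers and 52.9 ± 2.47 CPM in the HSD livers. The difference was 0.32 on the log2 scale (standard error 0.08, adjusted p = 0.0293 from edgeR). This call was lost in 5 of the 9 fits that left out a liver, those without chow 4, chow 5, HSD 1, HSD 2 or HSD 4 (adjusted p = 0.0575 to 0.0911). In the same list *Eef1a1*, the elongation factor that brings aminoacyl-tRNA, had 0.13 (standard error 0.11), *Eef2* 0.11 (standard error 0.09) and *Tpt1* 0.09 (standard error 0.10). The 5 below 0 were *Hnrnpa1* (-0.17), *Eef1d* (-0.15), *Eef1g* (-0.05), *Eef1b2* (-0.04) and *Eif3h* (-0.02), with standard errors of 0.08 to 0.10. All elongation factors counted next but *Eif5a*, and some of the initiation factors, are also in this list, so the lists overlap. Elongation factors had 0 of 6 called by edgeR (1 at an unadjusted p under 0.05; DESeq2 called *Eif5a* lower) with a median of -0.04 (-0.08 to -0.005 with 1 liver left out, and 0.03 on library totals), and initiation factors 0 of 35 (3 unadjusted; DESeq2 called *Eif4g2* higher) with a median of 0.01 (-0.02 to 0.03, and 0.08 on library totals).

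Genes that build ribosomes had medians near 0 or below it by TMM. Of 54 ribosome assembly genes edgeR called 0 (7 at an unadjusted p under 0.05), as did DESeq2 and voom, with a median of 0.003 (-0.05 to 0.04 with 1 liver left out, and 0.07 on library totals) and 27 on each side of 0. Of 14 RNA polymerase I genes 0 were higher and 1 lower (2 unadjusted), with a median of -0.08 (-0.11 to -0.02 with 1 liver left out, and -0.01 on library totals). The one lower was *Taf1b*, a subunit of the selectivity factor, which averaged 4.33 ± 0.595 CPM in the chow livers and 2.53 ± 0.491 CPM in the HSD livers. Its log2 fold change was -0.78 (standard error 0.19, adjusted p = 0.0324 from edgeR). This call was lost without chow 2, chow 5, HSD 1, HSD 2 or HSD 4 (adjusted p = 0.0507 to 0.102). Of 21 genes of mTORC1 and of the control of TOP mRNAs, edgeR called 0 (3 unadjusted), while DESeq2 and voom called *Sesn2* higher, an inhibitor of mTORC1 that is induced by stress and stood at 0.68 (standard error 0.19, adjusted p = 0.0503 from edgeR). *Rps6kb1*, the S6 kinase that phosphorylates the product of *Rps6*, had 0.30 (standard error 0.10, adjusted p = 0.0816 from edgeR), *Larp1* 0.11 (standard error 0.11) and *Mtor* -0.05 (standard error 0.10). The median of this list was 0.08 (0.03 to 0.12 with 1 liver left out, and 0.15 on library totals), with 14 of 21 above 0. Because the list mixes parts of the mTORC1 pathway with inhibitors of it such as *Sesn2*, these values give no direction of the pathway. On log2(TPM + 1) of genes with a mean of at least 1 TPM, limma kept *Nap1l1* but neither *Mrpl24* (adjusted p = 0.117) nor *Taf1b* (0.179), and called *Mrpl34*, *Eif4g2* and *Sesn2* higher. In the first series of labels alone, none of *Mrpl24*, *Nap1l1* and *Taf1b* passed (adjusted p = 0.126 to 0.222).

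**Figure D5:**
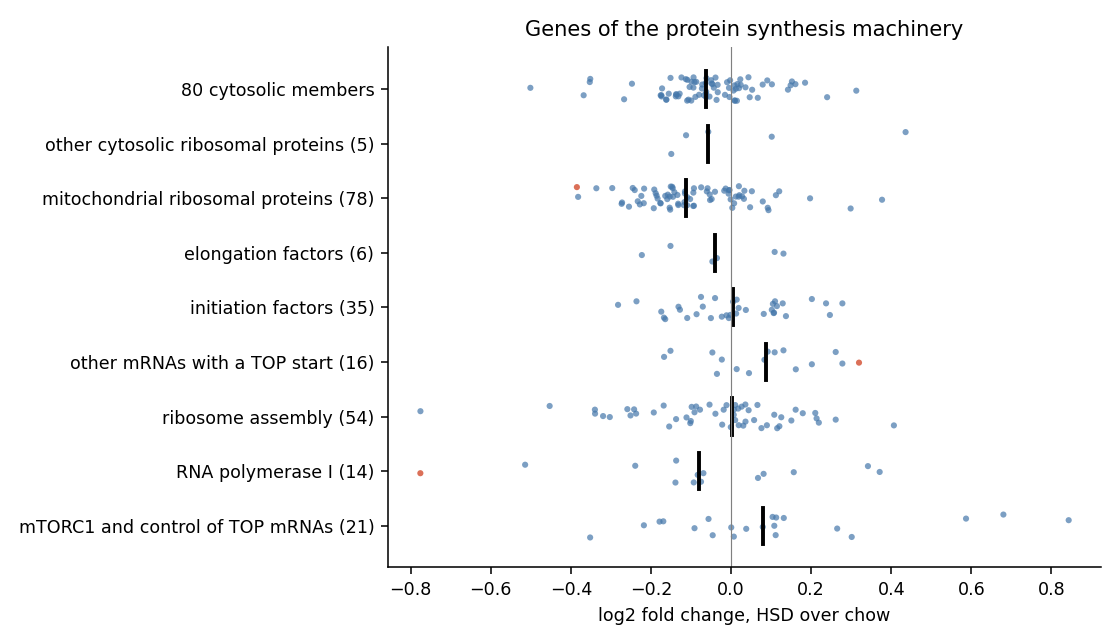
Points are the log2 fold changes (HSD over chow) of the tested genes of each list, with their number in brackets, and black bars the medians. Red points passed the test (*Mrpl24*, *Nap1l1* and *Taf1b*), and the medians run from -0.11 in mitochondrial ribosomal proteins to 0.09 in other mRNAs with a TOP start.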

How the data were processed

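Liver RNA of 5 chow and 4 HSD mice was analysed, with diets taken from the labels. Per the labels and the methods, the authors quantified poly-A libraries of paired 51-base reads with kallisto on GRCm38. They deposited estimated counts per symbol, unscaled, and TPM values. The kallisto version, the annotation release and the way transcripts were summed to symbols are not given in the sources used here. Kallisto divides reads that fit several transcripts. Of whole counts, 99.1% were even, so counts were also halved. No column of another sample was present (0 columns).

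Rounded counts were filtered with filterByExpr. A gene needed a count of about 10, scaled to library size, in at least as many livers as the smaller diet group, and a total of at least 15. After TMM scaling, the quasi-likelihood test of edgeR 4.0.16 (R 4.3.3) compared the diets with no further term, leaving 7 residual degrees of freedom, at an adjusted p under 0.05 over all genes. log2 CPM used a prior count of 2. Alternatives were DESeq2 1.42.0, limma 3.58.1 on log2 TPM (pseudocount 1 or 0.1, mean of at least 1 TPM or all genes), other scalings and filters, halved counts, an adjusted p under 0.01, the replicate block, label series, clock genes and each liver left out. Summed near copies and limma voom were added after seeing the data. Scripts were tested on simulated data.

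The members and lists were chosen with earlier results of these data known. Genes to be named were the members past the test, the 5 largest and 5 smallest log2 fold changes, the 5 highest TPM, *Rplp0*, *Rplp1*, *Rplp2*, *Rpsa*, listed paralogs, up to 4 genes per list past the test, members with a liver set apart, and the 3 genes most like the members. A few of these genes are not reported here. Near copies were found by 31-base sequences in GENCODE M21 transcripts, and starts come from RefSeq. Replicate numbers showed no sign of pairing the livers, though a pairing was not excluded.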

Additional observations from a re-analysis of the deposited data

Results flagged for a closer look

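In 7 of 178 sets of values (3.93%; each member, the level of the members and each list, on each diet), 1 liver lay apart from the others of its diet by Dixon's test, which chance does in about 1 in 20. All 7 were low values and lay in chow 4 or HSD 1, the livers with the lowest level of the members. That level was computed from the same members, and the sets share their livers and are not independent. Their common place is thus a description and no test. Relative to the mean of the remaining livers on the same diet (log2 CPM), *Rpl15* was at -0.385, *Rps18* at -0.547 and *Rps25* at -0.31 in chow 4. In HSD 1, *Rpl22l1* was at -1.03, *Rpl5* at -0.444, *Rps4x* at -0.254 and *Rpl37* at -0.205.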

How the results depend on the processing

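edgeR called 0 members in either direction under every alternative run with it, except that 1 was called higher without chow 2 (*Rpl10*), so leaving out 1 liver gave 0 to 1 higher and 0 lower. DESeq2 called 2 lower. The median log2 fold change of the members was -0.0616 as reported and -0.1196 to -0.008 with 1 liver left out. With the difference of the clock genes *Arntl* and *Dbp* (log2 CPM) as a covariate it was -0.0609. It was positive at 0.0129 on library totals, and with limma at 0.1168 on log2(TPM + 1), filtered or for all genes, and 0.1173 on log2(TPM + 0.1). On these TPM scales the median of all genes was 0.1358, 0.0632 and 0.1553. Of the 33 members whose value exceeded 1 standard error, 16 turned from below to above 0 on log2(TPM + 1) and as many on log2(TPM + 0.1), and 0 on library totals. Among the named genes, on log2(TPM + 1), filtered or not, *Rpl12* was at 0.0697, *Rps18* at 0.025, *Rps25* at 0.0121 and *Rps27* at 0.0543, and on log2(TPM + 0.1) at 0.0796, 0.0251, 0.0122 and 0.0544. Why the scales differ was not tested. Correlations of the deviations of livers with the same number were -0.061 to 0.066. These values show no sign that the numbers pair the livers, but they cannot exclude a pairing. The replicate block was fitted to replicates 1 to 4, which leaves out chow 5. With it the median was -0.0558 with 0 higher and 0 lower, and without the block the same livers gave -0.0612. The calls of *Mrpl24*, *Nap1l1* and *Taf1b* were lost in the fit with the block (adjusted p = 0.0894 to 0.122 from edgeR). Those of *Nap1l1* and *Taf1b* were also lost without chow 5 and with no block. The 95% intervals of most members reached beyond ±0.25 on the log2 scale. Differences of -0.35 (*Rpsa*, *Rplp1*) and -0.50 (*Rpl22l1*) did not pass the adjusted test of edgeR at this depth and number of livers. Shifts of single members of this size or smaller may therefore have been missed.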
